A study of Mus musculus with 3 samples.

Results

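The glycolysis and hypoxia genes described here are 32 mouse genes chosen by symbol, from the glucose transporter Slc2a1 to the mitochondrial protein Higd1a, out of 31017 gene symbols in the deposited matrices. All 32 were found, and Aldoa, which had 2 rows, was summed over them. They were followed in single cells of dorsal skin from C57BL/6 mice aged 7 weeks, sequenced from the 3′ ends of transcripts. The normal library came from control skin given glycerin, the IMQ library from skin given imiquimod, whose condition is labelled as imiquimod-induced psoriasis, and the IMQ+celastrol library from skin given celastrol and imiquimod, with the same condition label. Each group had 1 library, and the labels do not give the number of mice behind it, the dose or the length of treatment. No test between groups was therefore possible, and every interval below is a 95% interval that covers counting error only, not the spread between animals.

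Glycolysis splits glucose into pyruvate in the cytosol and yields ATP without oxygen. Cells that run it fast turn pyruvate into lactate, which leaves through monocarboxylate transporters. When oxygen is low, prolyl hydroxylases stop marking the alpha subunits of the hypoxia-inducible factors (HIF) for destruction, and the stabilised factors switch on glycolytic genes among others. Imiquimod activates Toll-like receptor 7 and, on mouse skin, gives a thickened, inflamed epidermis, and celastrol is a plant triterpenoid studied for its effects on inflammation.

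HIF dimers bind the core letters ACGTG or GCGTG, so the 250 bases before the transcription start of each member were searched for these letters on both strands in RefSeq promoters of build GRCm38.p6. Of the 32 members 30 had an entry, and 27 of these, or 90.0%, held at least 1 match, against 41.5% of all 27025 genes with an entry. By promoter, 35 of 43 member promoters (81.4%) and 12659 of all 32817 (38.6%) held a match. The member promoters also had more G and C (median 62.8% against 52.4% of bases), and the part of base composition in the difference was not tested. The set was chosen by name to hold hypoxia genes, so its share of matches is not independent of that choice. A match is a description of letters and not of a bound site. The promoters of the 4 members with the highest IMQ over normal ratio in keratinocyte-like cells are printed below, each 250 bases 5′ to 3′ toward the start, with every match on either strand in capitals. They lie at chr11:120948817-120949066 (plus strand, Slc16a3), chr3:104638414-104638663 (plus, Slc16a1), chr12:54203875-54204124 (minus, Egln3) and chrX:106186850-106187099 (plus, Pgk1).
Slc16a3: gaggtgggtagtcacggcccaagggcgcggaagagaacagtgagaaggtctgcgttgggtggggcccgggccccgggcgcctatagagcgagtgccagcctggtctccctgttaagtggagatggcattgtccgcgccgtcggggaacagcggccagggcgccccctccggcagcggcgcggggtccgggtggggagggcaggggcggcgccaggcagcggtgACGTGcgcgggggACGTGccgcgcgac
Slc16a1: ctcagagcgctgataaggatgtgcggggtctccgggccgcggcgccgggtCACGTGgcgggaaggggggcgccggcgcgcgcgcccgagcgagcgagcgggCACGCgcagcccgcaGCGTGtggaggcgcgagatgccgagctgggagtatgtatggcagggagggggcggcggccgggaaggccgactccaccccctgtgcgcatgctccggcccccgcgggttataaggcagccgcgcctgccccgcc
Egln3: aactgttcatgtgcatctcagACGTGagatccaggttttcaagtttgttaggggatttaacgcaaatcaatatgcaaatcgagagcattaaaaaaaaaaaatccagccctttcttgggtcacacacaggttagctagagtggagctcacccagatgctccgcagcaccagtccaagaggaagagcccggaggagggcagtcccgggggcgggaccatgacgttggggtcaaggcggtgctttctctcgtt
Pgk1: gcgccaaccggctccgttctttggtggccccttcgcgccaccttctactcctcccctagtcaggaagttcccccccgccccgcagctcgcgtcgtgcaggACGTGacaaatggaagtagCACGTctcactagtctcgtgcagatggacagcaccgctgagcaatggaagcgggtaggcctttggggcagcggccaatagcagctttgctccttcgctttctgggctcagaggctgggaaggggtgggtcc
The lactate exporter gene Slc16a3 held 2 matches, both within 27 bases of its start. Slc16a1 held 4, of which the pair farthest from the start overlap as a palindrome, the same letters being read on both strands. Pgk1 held 2 and Egln3 1.

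Libraries held 10565, 8236 and 6777 cell barcodes (normal, IMQ and IMQ+celastrol, the order used throughout), and 9558, 7495 and 6092 cells were kept, with a median of 5740, 8866 and 10558 UMIs (unique molecular identifiers, 1 per captured transcript). The pairs of libraries shared 26 (normal and IMQ), 15 (normal and IMQ+celastrol) and 23 (IMQ and IMQ+celastrol) barcodes. Cells were clustered without the 32 genes and named from marker lists, with the ending "-like" because the names rest on transcripts. The 12 keratinocyte markers summed to 49598, 58380 and 66715 CPM in keratinocyte-like cells and to 383, 309 and 1099 CPM in fibroblast-like cells. Unnamed clusters held 0.973%, 4.54% and 8.80% of cells. Levels are UMIs of a gene per 1000000 UMIs of a cell class in a library, abbreviated CPM. A member was counted as higher or lower past a ratio of 1.5, and only if measured, meaning a mean of at least 10 CPM over the compared libraries and at least 20 UMIs. The share of all measured genes past the same ratio is given with the counts of a comparison. CPM is a share of the RNA of a class, so a higher share and more transcripts per cell cannot be told apart. The median keratinocyte-like cell held 8089, 37784 and 27010 UMIs.

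In keratinocyte-like cells (3030, 1303 and 1910 cells) most of the set stood higher in the IMQ library. Of 27 measured members 21 were at least 1.5-fold higher than in the normal library, where 12.0% of all measured genes were, and only P4ha1 was lower, against 23.6% of all genes. The 32 genes together made up 4036, 10344 and 7966 CPM. The median member ratio was 1.18 on the log2 scale, and the median of all measured genes was -0.12. The 5 members under the measuring limit were Pfkm, Aldoc, Pfkfb3, Pfkfb4 and Car9, none above 11.2 CPM in any library. The class also differed in make-up, with 527, 22 and 18 outer root sheath or bulge-like cells of the hair follicle. In the normal library the set made up 3103 CPM of these cells, against 5054 CPM of basal keratinocyte-like cells. The part of this mix in the whole-class ratios was not tested.

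**Figure D1:**
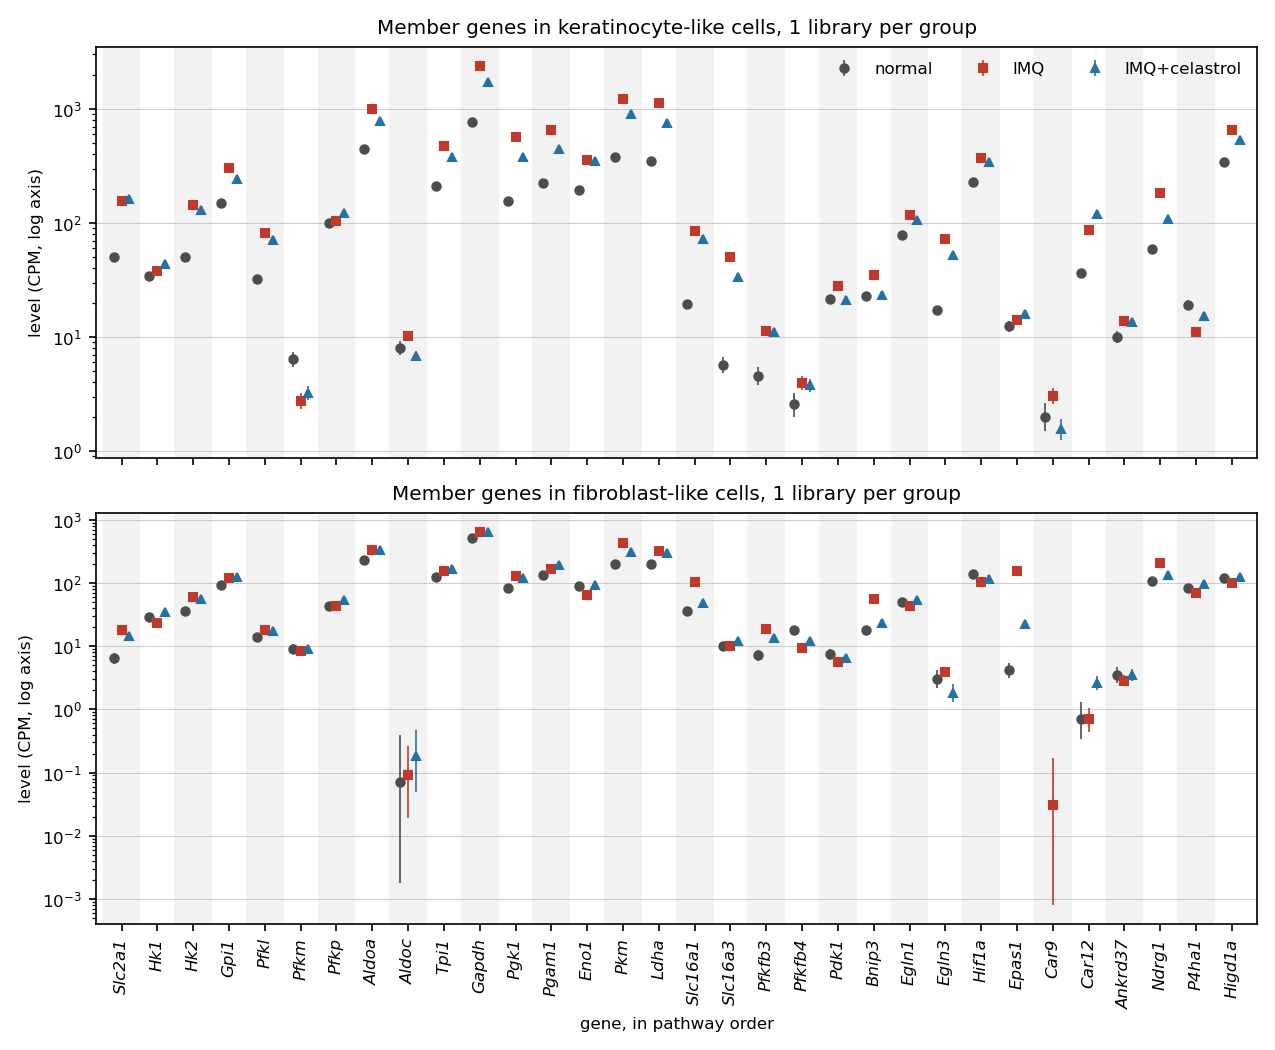
Level of each of the 32 genes in keratinocyte-like and fibroblast-like cells of the 3 libraries, in CPM on a log axis, with 95% Poisson intervals from counts as bars. Genes at 0 UMIs are not drawn. In keratinocyte-like cells the IMQ points lie above the normal points for most genes, and in fibroblast-like cells Epas1 has the widest gap, 4.13 CPM in normal against 153 CPM in IMQ.

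The carriers that let lactate out had the highest IMQ over normal ratios of the measured members. Slc16a3, the monocarboxylate transporter of strongly glycolytic cells, stood at 5.73, 49.9 and 33.6 CPM, and IMQ was 8.72-fold over normal (7.41 to 10.3). Slc16a1, the more widely expressed lactate carrier, stood at 19.3, 85.0 and 72.9 CPM, a ratio of 4.39 (4.01 to 4.82). Both carriers were lowest in the normal library, and both were lower with celastrol than with imiquimod alone. Slc2a1, the main glucose transporter of epidermis, was at 50.2, 155 and 163 CPM, so that it was 3.09-fold over normal in IMQ (2.92 to 3.27) and no lower with celastrol.

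Hk2, the inducible hexokinase that traps glucose in the cell, was at 50.1, 143 and 131 CPM (IMQ over normal 2.86, 2.70 to 3.03). Its housekeeping relative Hk1 was at 34.6, 38.1 and 43.5 CPM. Hk2 therefore gave 59.2%, 79.0% and 75.0% of the hexokinase UMIs of the pair. Among the phosphofructokinases, which commit sugar to glycolysis, Pfkl (the liver form) was at 32.3, 81.9 and 71.2 CPM, a ratio of 2.53 for IMQ over normal. Pfkp, the platelet form, was at 99.6, 104 and 122 CPM. The share of Pfkl among the UMIs of Pfkl, Pfkm and Pfkp was accordingly 23.4%, 43.5% and 36.3%. Shares within a family compare 3′ molecule counts and not protein.

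Every measured enzyme from Gpi1 to Ldha other than Pfkp passed the ratio. Gpi1, the isomerase that follows hexokinase, was at 148, 303 and 244 CPM. Aldoa, the aldolase that splits the sugar, was at 444, 999 and 780 CPM, and Tpi1, which interconverts its products, at 209, 474 and 382 CPM. Their IMQ over normal ratios were 2.04, 2.25 and 2.26. Gapdh, whose step makes NADH, was at 775, 2379 and 1732 CPM (3.07, 3.03 to 3.12), the highest level in the set. Pgk1, the first ATP-yielding step, was at 155, 568 and 380 CPM (3.67, 3.55 to 3.79). Pgam1, a mutase, was at 222, 655 and 441 CPM (2.95), which left Pgk1 with the largest ratio of the enzymes. Pkm, which makes pyruvate, was at 379, 1216 and 906 CPM (3.21, 3.14 to 3.28). Ldha, which reduces pyruvate to lactate, was at 348, 1116 and 746 CPM (3.21, 3.14 to 3.28). Eno1 had the smallest ratio of the enzymes that passed, at 196, 355 and 347 CPM (1.81), and its near copy Eno1b was at 1.04, 1.35 and 1.55 CPM.

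The oxygen-sensing genes differed among themselves. Hif1a, the widely expressed HIF alpha subunit, was at 227, 374 and 340 CPM (IMQ over normal 1.65, 1.60 to 1.70). Epas1, the other alpha subunit and typical of vessels, was low at 12.4, 14.2 and 16.0 CPM. Egln3, a prolyl hydroxylase that is itself induced by HIF, was at 17.2, 71.8 and 52.4 CPM (4.18, 3.79 to 4.61). Egln1, the main oxygen sensor of the family, was at 78.2, 118 and 107 CPM (1.51). Egln3 thus gave 18%, 37.8% and 32.8% of the UMIs of the 2 hydroxylases.

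Of the other HIF-responsive members, Ndrg1, a differentiation and stress gene, was at 58.6, 183 and 107 CPM (3.12, 2.96 to 3.29). Car12, a membrane carbonic anhydrase that handles acid outside the cell, was at 36.3, 86.2 and 119 CPM (2.37, 2.21 to 2.55). Higd1a, a mitochondrial inner membrane protein, was at 342, 657 and 531 CPM (1.92). These 3 passed the ratio, and Bnip3, a mitophagy receptor, passed it narrowly at 23.1, 35.2 and 23.1 CPM (1.52, 1.39 to 1.67). In basal cells alone Bnip3 was not higher in IMQ (46.9 CPM in normal and 39.6 in IMQ). The members Pdk1, which brakes pyruvate entry into mitochondria, and Ankrd37, a small ankyrin-repeat target, were between the limits (1.30 and 1.39). P4ha1, a collagen prolyl hydroxylase subunit, went the other way, at 19.2, 11.1 and 15.4 CPM (0.58, 0.51 to 0.65). In basal cells alone it was at 27.8 CPM in normal and 20.7 in IMQ, between the limits. In suprabasal cells it was at 2.25 and 1.62 CPM. The part of the layer mix in the whole-class ratio was not tested.

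Normal and IMQ keratinocytes fell mostly into different clusters. Of 22 keratinocyte sub-clusters only that led by Fst, Aldh3a1 and Ccl2, which the markers did not place in a layer, held 50 cells in both the normal and the IMQ library (158 and 57, with 225 in IMQ+celastrol). Within it 18 of 25 measured members were higher in IMQ (17.4% of all genes) and 1 was lower (13.2%). Slc16a3 was at 1.29 CPM from 2 UMIs in normal and 19.6 CPM from 38 UMIs in IMQ (ratio 15.2, 3.92 to 130). Pgk1 was 2.98-fold, Ldha 2.63-fold, Gapdh 2.61-fold, Pkm 2.59-fold, Hif1a 2.39-fold and Slc2a1 2.29-fold higher. Hk2 and Egln3 did not share this. Hk2 was at 140 CPM in normal and 116 in IMQ, and Egln3 at 22.6 and 15.5 CPM (0.68, 0.41 to 1.15), so for these genes the direction over the whole class was not found in the only cluster that both libraries shared.

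By layer, the set was higher in IMQ in both basal and suprabasal keratinocyte-like cells. Basal cells, which touch the basement membrane and divide, numbered 1055, 377 and 860, and suprabasal cells, which have left it and differentiate, 329, 484 and 385. In basal cells 17 of 26 measured members were higher and 0 lower (25.9% and 16.4% of all genes). In suprabasal cells 25 of 28 were higher and 0 lower (14.0% and 38.0%). The median gene also moved between these classes, by 0.16 on the log2 scale in basal and -0.33 in suprabasal cells, against member medians of 0.996 and 1.48. The layers came from different clusters in each library: normal basal cells mainly from the cluster numbered 0 among keratinocytes (839 cells), IMQ basal cells from a cycling cluster (164) and a cluster led by Il19, Has2 and Cxcl1 (206), and IMQ suprabasal cells from clusters led by Krt6b and Krt16 (298) and by cornified envelope genes (167). Cycling markers summed to 932, 1538 and 1225 CPM in basal cells and to 22.5, 203 and 115 CPM in suprabasal cells. The cluster led by Il19, Has2 and Cxcl1 also had cycling markers, with a score of 0.59. The cycling cluster scored 0.81 and cluster 0 scored 0. Only clusters with a cycling marker among their 10 leading genes were taken as cycling. The Il19-led cluster was therefore kept where cycling clusters were left out. The immediate early genes of dissociation summed to 17573, 7766 and 9215 CPM in basal cells, and to 3984, 10627 and 11054 CPM in suprabasal cells. Their part in the member levels was not tested.

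**Figure D2:**
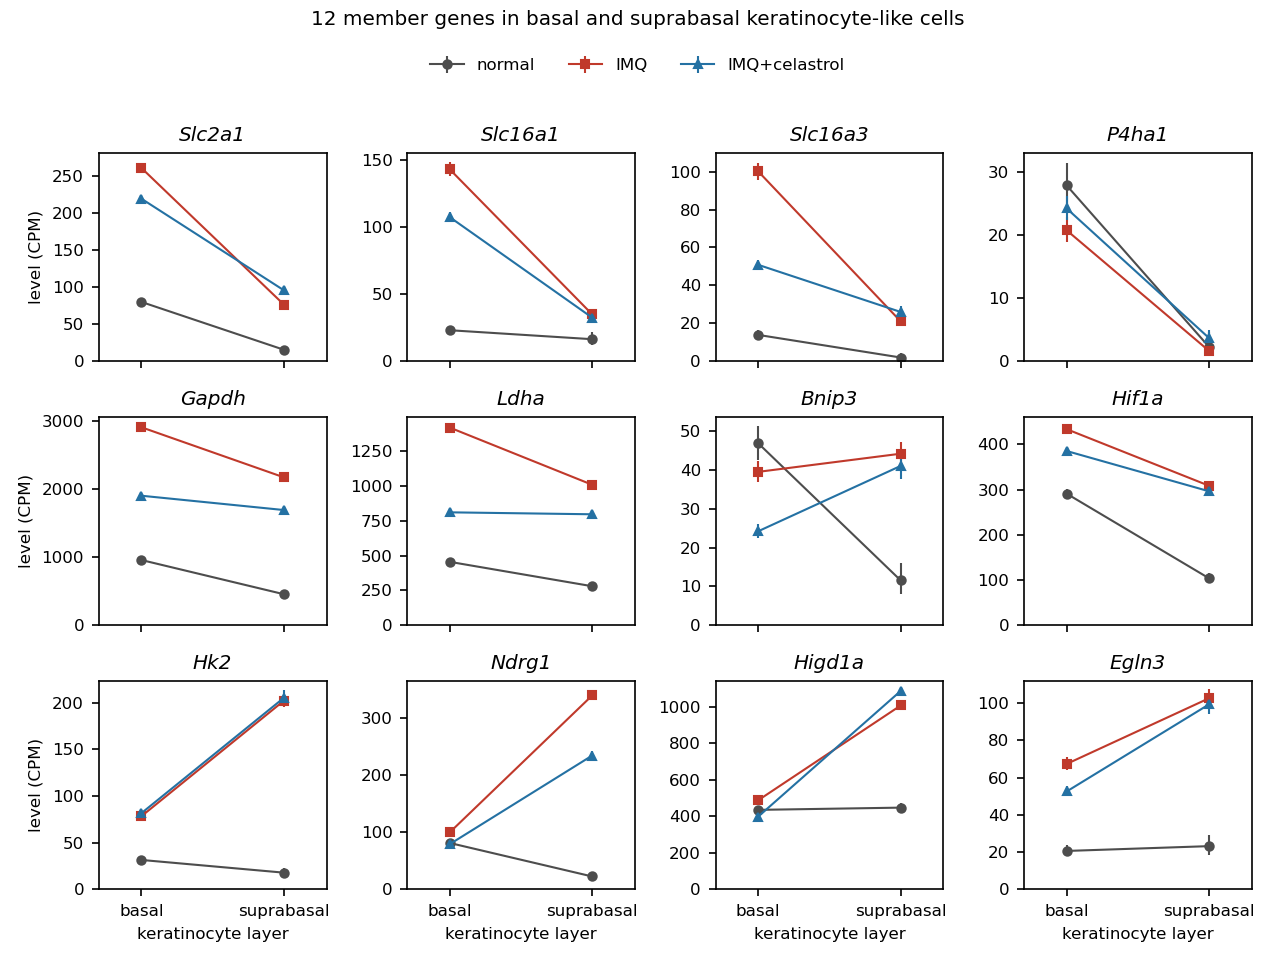
Levels of 12 members in basal and suprabasal keratinocyte-like cells of each library, in CPM with 95% Poisson intervals. The 3 transporter genes have their higher value in basal cells in each library, Slc16a1 in normal by 1.41-fold and so under the limit. Hk2 and Ndrg1 are lower in suprabasal than in basal cells of the normal library (ratios of 0.56 and 0.27) and higher there in the IMQ and IMQ+celastrol libraries, and Higd1a is level in normal and higher in suprabasal cells of the other libraries.

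The transporters were higher in basal cells. Slc2a1 was at 79.8 CPM in basal and 15.4 in suprabasal cells of the normal library, at 260 and 76.3 in IMQ and at 219 and 95.6 in IMQ+celastrol, so that the suprabasal level was 0.19, 0.29 and 0.44 of the basal level. Slc16a1 was at 23.1 and 16.4 CPM in normal, at 143 and 34.8 in IMQ and at 107 and 32.4 in IMQ+celastrol. Slc16a3 was at 13.9 and 1.93 CPM in normal, at 100 and 21.0 in IMQ and at 50.8 and 26.0 in IMQ+celastrol. Basal cells had the higher value for all 3 transporters in each library, and the difference passed the ratio except in the normal library, where Slc16a1 was 1.41-fold higher (1.03 to 1.95) and Slc16a3 was not measured in this comparison (6 suprabasal UMIs). The IMQ cluster led by Il19, Has2 and Cxcl1 held the highest levels of all keratinocyte clusters of at least 50 cells, at 148 CPM for Slc16a3, 173 for Slc16a1 and 331 for Slc2a1. P4ha1 had the lowest suprabasal over basal ratio of the measured members in each library, at 27.8 and 2.25 CPM in normal, 20.7 and 1.62 in IMQ and 24.2 and 3.65 in IMQ+celastrol.

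Ndrg1 and Hk2 were higher in basal cells of the normal library but higher in suprabasal cells of the others. Ndrg1 was at 81.0 CPM in basal and 22.1 in suprabasal normal cells, at 99.8 and 340 in IMQ cells and at 79.0 and 235 in IMQ+celastrol cells. Hk2 was at 31.3 and 17.6 CPM in normal, 78.2 and 202 in IMQ and 81.5 and 205 in IMQ+celastrol cells. The suprabasal over basal ratio of Ndrg1 was 0.27, 3.41 and 2.97, and that of Hk2 0.56, 2.59 and 2.52. The layers were not alike between libraries. Krt14 was at 784, 16179 and 15889 CPM in suprabasal cells and at 12307, 17846 and 19818 in basal cells. The cluster led by Krt6b and Krt16 scored 0.42 as suprabasal, near the limit of 0.4, and 0.41 as upper follicle. By keratin UMIs 2566, 1104 and 1613 keratinocyte-like cells were basal and 443, 198 and 294 suprabasal. The part of this in the layer ratios was not tested. Hk1 was at 47.5, 36.7 and 41.7 CPM in suprabasal cells, so that Hk2 made up 27.1% of hexokinase UMIs in normal suprabasal cells and 84.6% and 83.1% in the others. Bnip3 had ratios of 0.25, 1.12 and 1.70. It was at 46.9, 39.6 and 24.2 CPM in basal and at 11.6, 44.3 and 41.1 CPM in suprabasal cells. Higd1a was level in normal skin (434 and 446 CPM) but higher in suprabasal cells with imiquimod (487 and 1006) and with celastrol (397 and 1086). In the IMQ library the cluster led by cornified envelope genes reached 597 CPM for Ndrg1, 276 for Hk2, 162 for Egln3 and 1209 for Higd1a.

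Over all measured members, 0 of 24 were higher and 15 lower in suprabasal than in basal cells of the normal library (26.0% and 22.7% of all genes). In IMQ 7 of 29 were higher and 6 lower (12.3% and 39.6%), and in IMQ+celastrol 7 of 28 were higher and 5 lower (13.3% and 29.8%). The 7 in IMQ were Aldoc, Ndrg1, Hk2, Pfkfb3, Higd1a, Epas1 and Egln3. The median gene was 0.41 lower in IMQ and 0.26 lower in IMQ+celastrol on the log2 scale. With layers taken from the keratin UMIs of each cell in place of clusters, 8 members and not 15 were lower in the normal library. With cycling clusters left out, 11 and not 6 were lower in IMQ.

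Upper follicle-like cells (382, 292 and 401) showed the same side, with 16 of 24 measured members higher in IMQ and 0 lower (15.8% and 18.3% of all genes). Car12 led there, at 26.0 CPM in normal and 130 in IMQ (5.01, 3.94 to 6.45). Hif1a was at 123 and 379 CPM (3.08). Slc16a3 had 0 UMIs in normal and 46 in IMQ. Normal and IMQ cells of this class again came from different clusters. Most normal cells lay in a cluster led by Cst6 (376 cells, 0 in IMQ), with an upper follicle marker score of 0.98. The IMQ cells lay in a cluster led by Krt79 (292 cells, 6 in normal), with a score of 0.52. Krt5 was at 286 CPM in normal and 2871 in IMQ. The part of cluster make-up in the member ratios was not tested.

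In the IMQ+celastrol library the summed level of the set in keratinocyte-like cells lay nearer to IMQ than to normal. By layer this held in suprabasal cells (3154, 10189 and 8986 CPM) but not in basal cells (5054, 12022 and 8392 CPM). Compared with IMQ, of 28 measured members 0 were higher and 2 lower past the ratio (4.8% and 3.69% of all genes). The 2 were Ndrg1 (0.59, 0.57 to 0.61) and Bnip3 (0.66, 0.61 to 0.71). The count of 2 lower became 6 without cycling clusters, 6 without genes above 5000 CPM in the class total and 0 over shared clusters weighted equally, where Bnip3 was at 0.0012 and Ndrg1 at -0.44 on the log2 scale. It was 1 with scaling by the median ratio, with each library clustered by itself and at a mean of at least 50 CPM. Smaller differences mostly went one way, with 22 of the 28 below 1 and a median log2 ratio of -0.26 against -0.03 for all genes. Slc16a3, Pgk1, Ldha and Pgam1 each stood at 0.67 of the IMQ level, and Gapdh at 0.73. Car12 and P4ha1 were the highest, at 1.38 and 1.39. Against the normal library, 18 of 27 measured members were still higher and 0 lower (7.07% and 17.3%).

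By layer, the members lower with celastrol depended on how the layers were drawn. In basal cells 7 of 27 measured members were lower and 0 higher (8.03% and 5.79% of all genes), and these were Slc16a3 (0.51), Pgam1 (0.56), Ldha (0.57), Pgk1 (0.60), Bnip3 (0.61), Gapdh (0.65) and Pkm (0.65). In suprabasal cells 0 of 28 were lower and 1, Car12, was higher (1.80), where 3.69% and 6.36% of all genes were. Ndrg1, the lowest over the whole class, was between the limits in both layers, at 0.69 of the IMQ level in suprabasal and 0.79 in basal cells. The difference between the layers was not tested. The basal class held the cluster led by Il19, Has2 and Cxcl1 in IMQ (206 cells, 34 in IMQ+celastrol) and a cluster led by Igfbp3 in IMQ+celastrol (526 cells, 7 in IMQ). In the cycling basal cluster that both libraries shared, 0 of 27 members passed in either direction (4.08% and 3.51%), and Ldha was at 1258 and 926 CPM. With layers from keratin UMIs 3 members were lower in each layer, in place of 7 in basal and 0 in suprabasal cells. At the finer clustering these counts were 11 and 2, with each library clustered by itself 7 and 6, with cells over 10% mitochondrial UMIs left out 6 and 3, with a mean over cells 8 and 1, and over shared clusters 0 and 0.

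**Figure D3:**
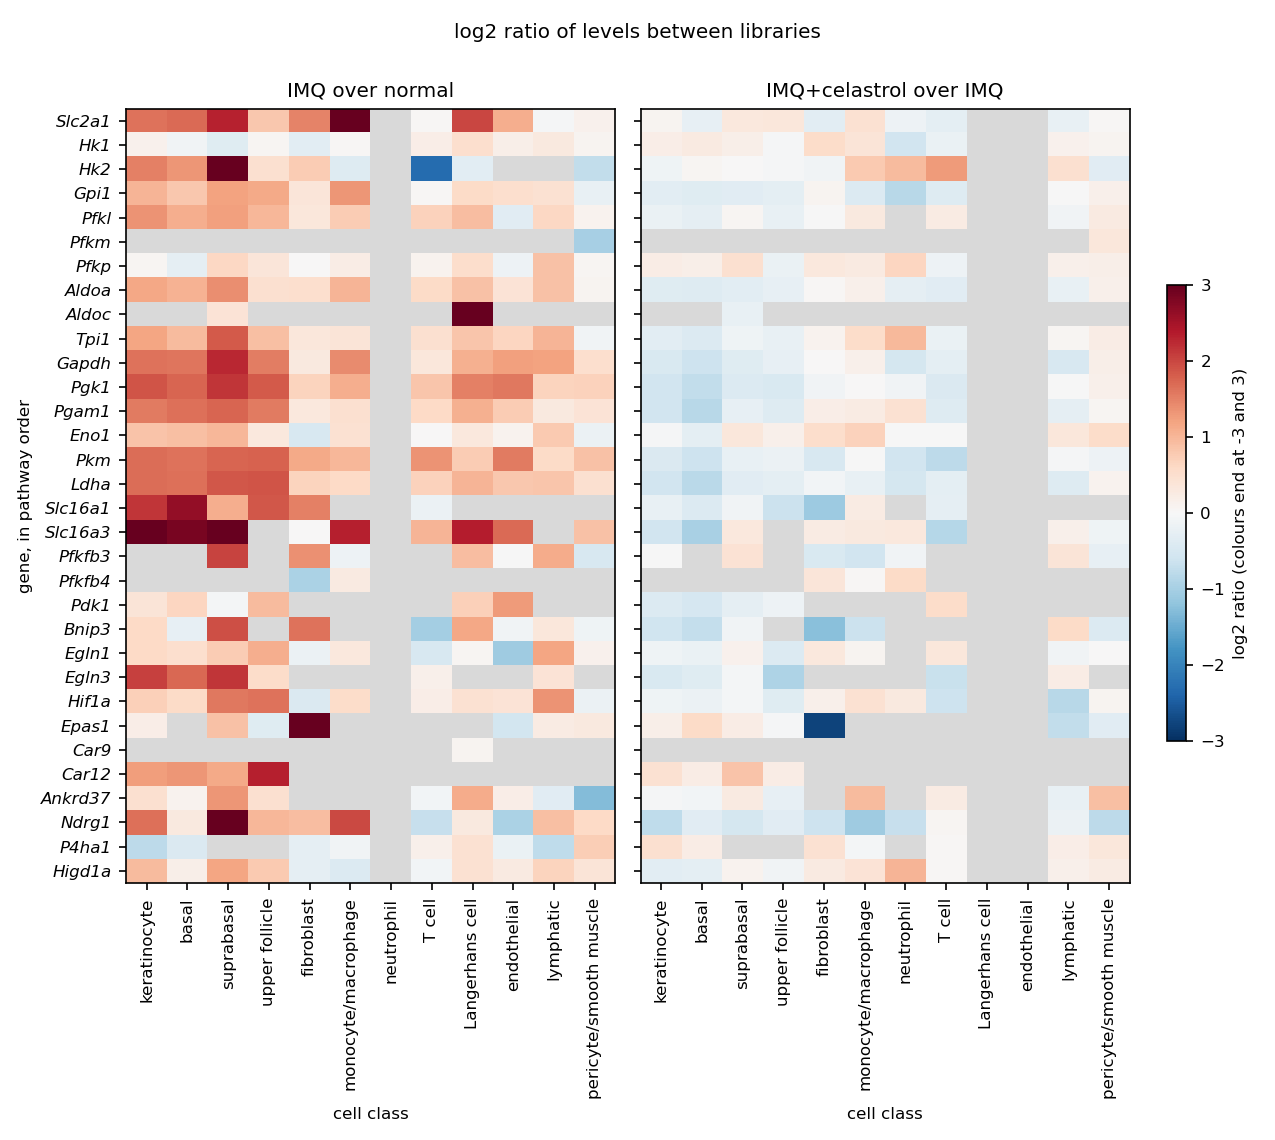
Log2 ratio of IMQ over normal and of IMQ+celastrol over IMQ for the measured members in 12 cell classes. Grey cells were not measured or had under 50 cells in a library. The keratinocyte-like columns are mostly high for IMQ over normal, and Epas1 in fibroblast-like cells has the extreme value in both panels (ratios of 37.0 and 0.14).

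Fibroblast-like cells (2823, 3274 and 2241 cells) differed less over the set and more at 1 gene. Of 25 measured members 10 were higher in IMQ than in normal and 1 lower (11.2% and 10.8% of all genes), with a median log2 ratio of 0.35 against 0.01 for all genes. Epas1 was at 4.13 CPM in normal (58 UMIs), 153 in IMQ (5039 UMIs) and 22.2 in IMQ+celastrol (485 UMIs). IMQ was therefore 37.0-fold over normal (28.6 to 48.9), and IMQ+celastrol 0.14 of IMQ (0.13 to 0.16). Hif1a went slightly the other way, at 140, 103 and 116 CPM. Of the UMIs of these 2 alpha subunits, Epas1 gave 2.87%, 59.7% and 16.1%. The libraries held the fibroblast-like clusters in different numbers, as given below.

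Because Epas1 marks vessels, vascular genes in the fibroblast-like class are given beside it. The 8 endothelial markers, none at 0, summed to 32.3, 60.9 and 39.5 CPM, against 8742, 9131 and 6572 CPM in endothelial-like cells. The 9 pericyte or smooth muscle markers, none at 0, summed to 1545, 113 and 375 CPM. The 6 lymphatic markers, none at 0, summed to 7.34, 10.4 and 10.8 CPM. In endothelial-like cells Epas1 was at 542, 371 and 904 CPM, and in pericyte-like cells at 486, 592 and 469 CPM. The part of vascular cells or their free RNA in the Epas1 level of fibroblast-like cells was not tested. Immediate early genes summed to 9290, 14877 and 11678 CPM, and their part was not tested.

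Epas1 was unevenly spread over fibroblast clusters. In the IMQ library it was highest in the remodelling fibroblast-like cluster led by Saa3 and Tnc (926 cells, 286 CPM) and in a cluster led by Coch and Mmp11 (913 cells, 171 CPM), which held 7 and 4 cells in the normal library. The Apod fibroblast-like cluster followed at 54.5 CPM, and the lowest was the Thbs4-led cluster at 8.68 CPM. In the 5 clusters with 50 cells in both libraries normal counts were low, and weighted equally these clusters gave an IMQ over normal log2 ratio of 1.84 for Epas1. In the cluster led by Mfap4 and Cpz (1539 and 57 cells) Epas1 was at 2.81 and 34.2 CPM (12.2, 5.57 to 26.3, from 17 and 14 UMIs), and in the dermal sheath-like cluster (825 and 59 cells) at 4.04 and 19.5 CPM (4.83, 1.98 to 10.7). In Apod fibroblast-like cells (103 and 420 cells) it was at 27.6 and 54.5 CPM (1.98, 0.98 to 4.64), an interval that includes 1. In the Thbs4-led cluster (178 and 546 cells) it was at 1.27 CPM from 1 UMI and 8.68 CPM from 55 UMIs (6.86, 1.18 to 276). In the adventitial fibroblast-like cluster (87 and 306 cells) it had 0 UMIs in normal, which allows up to 11.5 CPM, and 30 UMIs or 10.9 CPM in IMQ. With celastrol the remodelling cluster (297 cells) stood at 61.5 CPM, 0.22 of its IMQ level (0.19 to 0.25), and the Apod cluster at 13.7 CPM, 0.25 of it.

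**Figure D4:**
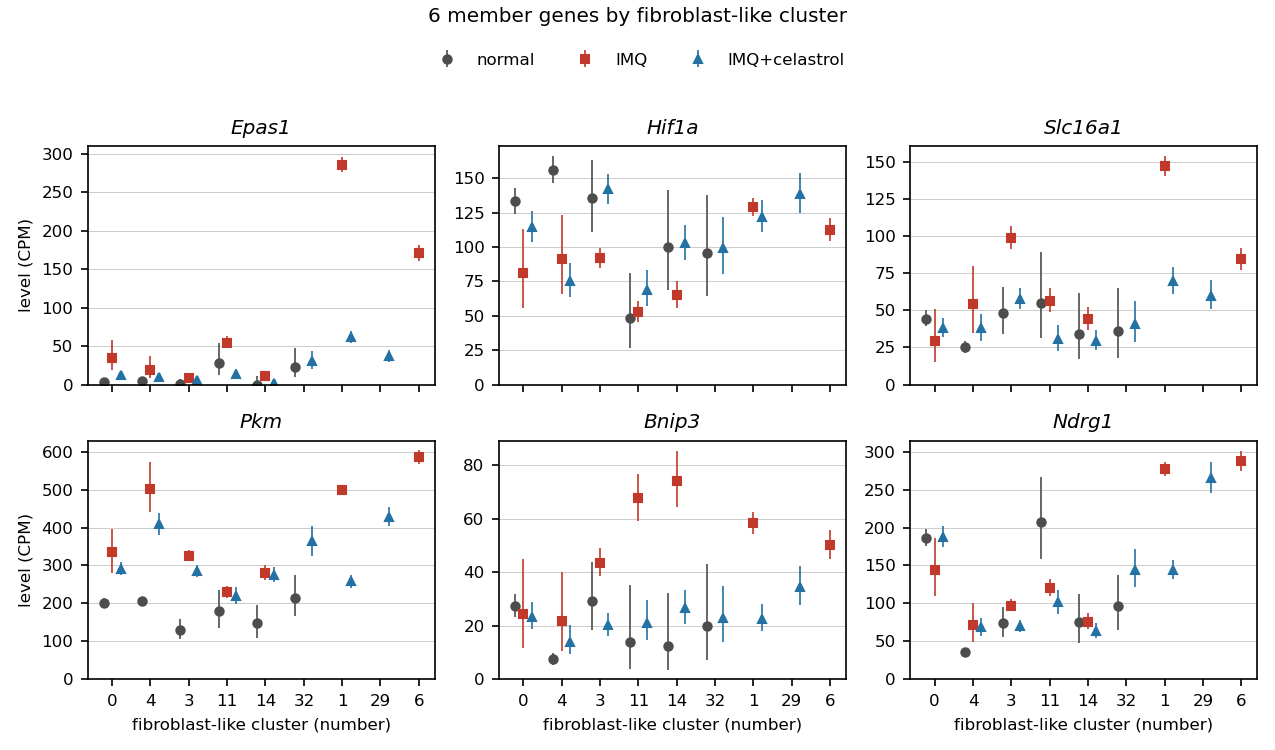
Levels of Epas1, Hif1a, Slc16a1, Pkm, Bnip3 and Ndrg1 by fibroblast-like cluster and library, in CPM with 95% Poisson intervals. The numbers stand for clusters led by Mfap4 (0) and Thbs4 (3), dermal sheath-like (4), Apod (11), adventitial (14) and papillary fibroblast-like (32), remodelling (1), and clusters led by Coch (6) and Gpnmb (29), and those with under 50 cells in a library are not drawn. Epas1 reaches 286 and 171 CPM in 2 IMQ clusters and stays at or under 27.6 CPM in the normal library.

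Several other members were higher in IMQ fibroblast-like cells and again lower with celastrol. Bnip3 was at 17.9, 54.9 and 23.0 CPM (IMQ over normal 3.07, 2.69 to 3.52). Slc16a1 was at 36.1, 103 and 48.9 CPM (2.86, 2.61 to 3.15). Pkm was at 198, 433 and 312 CPM (2.19, 2.10 to 2.28). For Bnip3 and Slc16a1 the IMQ+celastrol level was nearer to normal than to IMQ. Ndrg1 was at 109, 206 and 134 CPM (1.89). Slc2a1 was at 6.41, 18 and 14.3 CPM (2.80), and Pfkfb3, whose product raises phosphofructokinase activity, at 7.20, 18.7 and 13.5 CPM (2.59). Its relative Pfkfb4 was the only member lower in IMQ, at 18, 9.39 and 12.0 CPM (0.52, 0.44 to 0.62), so that Pfkfb3 gave 28.5%, 66.5% and 53.0% of the UMIs of the pair. Hk2, Ldha and Pgk1 passed at 1.70, 1.59 and 1.59.

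Cluster make-up touched some of these. Over the 5 fibroblast clusters with 50 cells in both libraries, weighted equally, 5 and not 10 members were higher in IMQ, and Slc2a1, Ndrg1 and Hk2 took the other direction (log2 ratios of -0.54, -0.18 and -0.16). The weighted ratios compare mean levels, so a cluster with a high level counts most. In Apod fibroblast-like cells Slc2a1 was at 89.6 CPM in normal and 19.6 in IMQ (0.22, 0.14 to 0.36). In each other cluster of the 5 it was higher in IMQ. It was at 4.79 and 7.34 CPM in the Mfap4-led and 2.53 and 8.52 in the Thbs4-led cluster. The dermal sheath-like cluster had 4.37 and 23.9 CPM and the adventitial one 3.13 and 12.4. These levels rest on 1 to 54 UMIs. Ndrg1 was lower in the Mfap4-led and Apod clusters only, and Hk2 in these and the adventitial cluster. Bnip3 passed the ratio in 3 of the 5 clusters, Apod fibroblast-like (4.90), adventitial fibroblast-like (5.93) and dermal sheath-like (2.92), though from 4, 4 and 46 normal UMIs. It was at 1.49 in the Thbs4-led and 0.89 in the Mfap4-led cluster. Pkm was 2.50-fold higher in the Thbs4-led cluster and 2.45-fold in the dermal sheath-like one.

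With celastrol, 4 of 25 measured members were lower in fibroblast-like cells than with imiquimod alone and 0 higher (3.78% and 6.91% of all genes), namely Epas1, Bnip3 (0.42), Slc16a1 (0.47) and Ndrg1 (0.65). The median member was at 0.04 on the log2 scale and the median gene at 0.13. The class differed in make-up between the IMQ and IMQ+celastrol libraries. The remodelling cluster held 926 and 297 cells and the Coch-led cluster 913 and 48. The Mfap4-led cluster held 57 and 404 cells and the Gpnmb-led cluster 19 and 230. The part of this make-up in the whole-class ratios, that of Epas1 among them, was not tested. In the remodelling cluster alone 7 of 24 were lower and 1, Pfkfb4, higher (4.99% and 10.4%). There Pkm was at 0.52, Ndrg1 at 0.52, Slc16a1 at 0.47 and Bnip3 at 0.39 of the IMQ level. Bnip3 was also lower in the Apod (0.31), adventitial (0.36) and Thbs4-led (0.46) clusters. Eno1 and Hk1, by contrast, were at 1.45 and 1.47 of the IMQ level over all fibroblast-like cells, just under the limit.

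Keratinocyte transcripts found in other classes were used as a background for low levels outside the epidermis. Free RNA was not measured, and free RNA and remaining doublets cannot be told apart here. Krt14, a keratin of basal keratinocytes, reached 0.42%, 0.44% and 1.87% of its keratinocyte level in fibroblast-like cells, and 0.61%, 0.70% and 2.32% in monocyte or macrophage-like cells. Car12 in fibroblast-like cells, at 1.96%, 0.81% and 2.23% of its keratinocyte level, was near this background in IMQ+celastrol and above it in normal and IMQ, though from only 10, 23 and 58 UMIs (0.71, 0.70 and 2.65 CPM). Slc2a1 in fibroblast-like cells, at 12.8%, 11.6% and 8.77%, was above it.

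Monocyte or macrophage-like cells (128, 557 and 97 cells) had 10 of 22 measured members higher in IMQ and 0 lower (22.6% and 21.3% of all genes). Slc16a3 was at 17.3 CPM in normal (5 UMIs), 87.0 in IMQ (318) and 107 in IMQ+celastrol (55), a ratio of 5.02 for IMQ over normal (2.13 to 15.6). Slc2a1 was at 3.47, 38.6 and 52.7 CPM, from 1, 141 and 27 UMIs (11.1, 1.97 to 443). Both transporters were low in normal cells and high in both other libraries. The 10 neutrophil markers, of which 4, 1 and 2 were at 0, summed to 135, 648 and 316 CPM in this class, against 19572, 37376 and 26319 CPM in neutrophil-like cells, where Slc16a3 was at 444 CPM in IMQ and 555 in IMQ+celastrol. Their part in the transporter levels was not tested. Gapdh was at 530, 1406 and 1558 CPM (2.65, 2.26 to 3.13). Gpi1 was at 166, 416 and 314 CPM (2.50), and Pgk1 and Aldoa were 2.14-fold and 2.02-fold higher. Slc16a3 gave 88.3% of the UMIs of the 2 lactate carriers in IMQ, against 37.0% in keratinocyte-like cells. The normal class was mostly tissue macrophage-like (107 of 128 cells) and the IMQ class mostly inflammatory monocyte-like (500 of 557). In tissue macrophage-like cells alone 8 of 17 measured members were higher and 2 lower (26.8% and 16.4%).

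Ndrg1 was at 41.6, 163 and 78.1 CPM in the same class. IMQ was 3.93-fold over normal (2.23 to 7.64), and IMQ+celastrol was 0.48 of IMQ (0.34 to 0.66). With celastrol 3 of 25 measured members were higher and 2 lower (11.3% and 13.4%). The higher ones were Ankrd37, from 7 UMIs, Hk2 (55.3 and 95.6 CPM, 1.73) and Eno1 (205 and 330 CPM, 1.61). The lower ones were Ndrg1 and Bnip3, the latter from 6 UMIs (0.64, 0.23 to 1.47).

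Neutrophil-like cells, of which the normal library had 7, were compared between IMQ (142 cells) and IMQ+celastrol (69) only. They held the highest Slc16a3 of any class in these 2 libraries, at 444 and 555 CPM, where Slc16a3 gave 99.7% and 99.1% of the UMIs of the 2 carriers. Pfkfb4 was at 60.9 and 91.0 CPM. Gpi1 was at 706 and 397 CPM (0.56, 0.44 to 0.71). Of 19 measured members 4 were higher and 2 lower with celastrol (19.4% and 18.2% of all genes).

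Elsewhere single members stood out. In Langerhans cell-like cells (84 and 62 in normal and IMQ) 15 of 26 were higher in IMQ and 0 lower (18.3% and 15.8%), and Aldoc, the brain-type aldolase, was at 4.39 and 69.2 CPM from 3 and 90 UMIs (15.8, 5.23 to 77.9). In T cell-like cells (678, 752 and 346) 6 of 24 were higher and 3 lower (13.3% and 14.3%). Pkm was at 317, 808 and 468 CPM there, but Hk2 at 218, 44.1 and 106 CPM, 0.20 of normal in IMQ (0.17 to 0.24). With celastrol 1 member, Hk2, was higher than in IMQ (2.41) and 4 were lower, Pkm (0.58) and Hif1a (0.65) among them (7.54% and 6.32%). The T cell-like class differed in make-up. Its cluster led by Il17a and Il22 held 107, 266 and 121 cells, and that led by Cd7 and Cd3g 341, 266 and 140. The part of this in the ratios was not tested. In lymphatic endothelial-like cells (52, 181 and 150) 14 of 24 were higher and 1 lower (23.6% and 13.5%), with Hif1a at 130, 330 and 186 CPM. With celastrol 0 were higher and 2, Hif1a and Epas1, lower (8.29% and 8.47%). Endothelial-like cells had 9 of 24 higher and 2 lower in IMQ (17.3% and 19.1%), and pericyte or smooth muscle-like cells 5 of 25 higher and 3 lower (13.3% and 15.6%). Ndrg1 was highest in Schwann-like cells in each library (116, 74 and 83 cells), at 1388, 1014 and 1139 CPM.

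Across clusters of at least 50 cells, the level of each member was set beside the mean of the other members. Gpi1 followed them best in normal, with a Spearman correlation of 0.70 over 32 clusters, and Pfkl in IMQ and IMQ+celastrol, with 0.82 over 30 and 0.82 over 26. P4ha1 (-0.36, -0.47 and -0.71) and Pfkfb4 (-0.39, -0.47 and -0.38) had negative values in all 3, as did Pfkm and, close to 0, Pfkfb3. Hk2 (0.02, 0.23 and 0.13) and Epas1 (0.04, -0.03 and 0.21) were near 0. Clusters of a library share its depth and free RNA, so these are descriptions only.

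Neighbouring pathways were counted in the same way. In keratinocyte-like cells 3 of 8 measured genes of a list of 24 other glycolysis and lactate genes were higher in IMQ and 1 lower, where 12.0% and 23.6% of all measured genes were, and these shares stand against each list in this class. Pdk4, which also inhibits pyruvate dehydrogenase, was at 17.0, 79.0 and 27.4 CPM, whereas Slc16a7, a pyruvate and lactate carrier, was at 40.2, 0.53 and 0.72 CPM. Of 26 other HIF pathway genes 17 were measured, with 8 higher and 3 lower, and Vegfa, the angiogenic growth factor, was at 32.4, 103 and 85.1 CPM. Of 7 measured pentose phosphate genes 3 were higher and 0 lower. Pgd, which makes NADPH in that pathway, was at 29.4, 115 and 60.2 CPM. Of 16 citric acid cycle and respiratory chain genes 6 were higher and 0 lower, the highest ratio being 1.68 for Atp5a1.

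In fibroblast-like cells the same lists gave 1 higher and 1 lower of 6 measured (other glycolysis), 5 and 3 of 22 (other HIF pathway), 2 and 0 of 7 (pentose phosphate) and 0 and 0 of 16 (citric acid cycle), where 11.2% of all measured genes were higher and 10.8% lower. Adm, a vasodilator peptide gene, was at 75.2, 292 and 163 CPM. Stc1, a secreted glycoprotein gene, was at 33.4, 7.48 and 24.8 CPM and Ndufa4l2, a mitochondrial HIF target, at 367, 101 and 113 CPM.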

How the data were processed

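Each of the 3 deposited matrices held UMI counts for 31053 gene rows in each barcode. The authors' counting software was Cell Ranger 4.0.0 per the file headers, with the builds mm10 and GRCm38 per the submitters' processing notes. Alignment options are not given in the sources used here. Depth was 77880943, 119831835 and 103267738 UMIs (normal, IMQ and IMQ+celastrol). Cells with under 300 genes or over 20% mitochondrial UMIs were left out, as were the cells with the top Scrublet scores (scanpy 1.11.5), at 0.8% per 1000 cells in every library (870, 513 and 330 cells), since Scrublet's own threshold marked 229, 7 and 99.

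Libraries were clustered together without integration: 2000 variable genes, the 32 members excluded, 30 components, 15 neighbours and Leiden resolution 1 (leidenalg 0.10.2, igraph 0.11.9, scikit-learn 1.9.0). The 41 clusters, 2 of them unnamed, were named from marker lists, and keratinocyte-like cells were clustered again into 22 sub-clusters for the layers (a basal score of at least 0.6 or a suprabasal score of at least 0.4, limits set after the clusters were seen). Keratinocyte-like cells whose sub-cluster got no layer numbered 737, 128 and 246.

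UMIs were summed per class and library, with exact Poisson intervals for levels, exact conditional binomial intervals for ratios and no p-value. Classes with at least 50 cells in both libraries were compared. The calculation was tested on simulated data. Software was Python 3.11.15 with anndata 0.12.19, matplotlib 3.10.9, numpy 2.4.6, pandas 2.3.3 and scipy 1.17.1. Groups follow the treatment labels. The members and gene lists were chosen with earlier results of these data known, and the layer rules with the clusters in view. Members past 2-fold in either comparison in keratinocyte-like, fibroblast-like or monocyte or macrophage-like cells, with at least 20 UMIs, were named with their values, and others were given by counts or by role.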

Additional observations from a re-analysis of the deposited data

How the results depend on the processing

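Of the counts of members past the ratio, 26 were recomputed under those of 14 alternatives that apply to them: the counts for IMQ over normal and IMQ+celastrol over IMQ in keratinocyte-like, basal, suprabasal, fibroblast-like and monocyte or macrophage-like cells, and those between layers. Adding Eno1b to Eno1 was run for Eno1 only, and counts in other classes and in single clusters were not recomputed. Leaving out a library was not possible with 1 library a group. No paired analysis was possible because each group had 1 library. Of the recomputed counts 256 stayed within 1.5 times the value given and 60 did not, and of the log2 ratios of single members 1016 stayed, 161 moved and 7 reversed. Counts higher in IMQ over normal in keratinocyte-like cells ran from 18 to 24 (21 as given).

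Counts that moved are given with the value in the report in brackets. With called doublets kept, members lower with celastrol in monocyte or macrophage-like cells were 4 (2), and members higher in suprabasal than basal normal cells 1 (0). With cells over 10% mitochondrial UMIs left out, members lower with celastrol in suprabasal cells were 3 (0), and between layers 1 was higher in normal (0), 10 lower in IMQ (6) and 8 lower in IMQ+celastrol (5). At Leiden resolution 2, 1 member was lower in IMQ than normal suprabasal cells (0), 1 higher (0) and 11 lower (7) with celastrol in basal cells, 2 lower with celastrol in suprabasal cells (0), 2 higher between normal layers (0) and 10 lower between IMQ layers (6). With each library clustered by itself, 2 were lower in IMQ monocyte or macrophage-like cells (0), and with celastrol 1 was lower in keratinocyte-like cells (2), 1 higher in basal cells (0), 4 higher (1) and 6 lower (0) in suprabasal cells and 5 higher in monocyte or macrophage-like cells (3). Between layers 1 was then higher in normal (0), 10 lower in IMQ (6) and 4 higher in IMQ+celastrol (7).

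With scaling by the median ratio, 1 was lower in keratinocyte-like (2) and 1 higher in basal cells (0) with celastrol. Without genes above 5000 CPM these were 6 and 1. With a mean over cells, 1 was lower in IMQ monocyte or macrophage-like cells (0), and with celastrol 1 higher in keratinocyte-like (0), 1 higher in basal (0), and 3 higher (1) and 1 lower (0) in suprabasal cells. With no filter beyond 20 UMIs, members lower in IMQ were 2 in keratinocyte-like (1), 2 in basal (0), 1 in suprabasal (0) and 1 in monocyte or macrophage-like cells (0), members higher with celastrol 2 in suprabasal (1) and 1 in fibroblast-like cells (0), and 3 were higher between normal layers (0). At a mean of 50 CPM, which tests fewer genes, 0 were lower in IMQ keratinocyte-like cells (1), 6 higher (10) and 0 lower (1) in IMQ fibroblast-like cells, 1 lower in keratinocyte-like (2), 0 higher in suprabasal (1) and 1 lower in monocyte or macrophage-like cells (2) with celastrol, 4 higher between IMQ layers (7), and 4 higher (7) and 3 lower (5) between IMQ+celastrol layers.

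With cycling clusters left out, 6 were lower in keratinocyte-like (2) and 1 higher in basal cells (0) with celastrol, 1 was higher between normal layers (0) and 11 lower between IMQ layers (6). With layers from keratin UMIs, 1 was lower in IMQ basal cells (0), 3 were lower with celastrol in basal (7) and 3 in suprabasal cells (0), and 2 were higher (0) and 8 lower (15) between normal layers. With shared clusters weighted equally, 5 were higher in IMQ fibroblast-like (10) and 2 lower in IMQ monocyte or macrophage-like cells (0), and with celastrol 0 were lower in keratinocyte-like (2) and basal cells (7) and 2 higher in suprabasal cells (1).

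Of single members, Bnip3 with celastrol in monocyte or macrophage-like cells reversed to a log2 ratio of 0.12 when each library was clustered by itself. With shared clusters weighted equally, IMQ over normal reversed for Egln3 (-0.55) and Hk2 (-0.27) in keratinocyte-like cells and for Hk2 (-0.16), Ndrg1 (-0.18) and Slc2a1 (-0.54) in fibroblast-like cells, and Bnip3 with celastrol in keratinocyte-like cells was at 0.0012. The fibroblast values are ratios of mean levels over the shared clusters, and among these Slc2a1 was lower in IMQ in the Apod cluster only. Beyond this the cause was not tested. Depth limits the values of small classes, such as the normal monocyte or macrophage-like class with 288591 UMIs.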
